A study of Macaca fascicularis with 9 samples.

Results

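Cluster 15 held 213 of the 79994 deposited nuclei, and its members were the nuclei that the authors named unknown and placed in cluster number 15 of 17. The nuclei came from the thalamus of 9 female cynomolgus monkeys and were profiled as droplet libraries, 1 library per animal. All 9 animals contributed to the cluster. Saline replicates 1, 2 and 3 gave 17, 35 and 7 nuclei, ASO replicates gave 12, 8 and 14, and OTV replicates gave 72, 25 and 23. The saline group (n = 3) received 4 intravenous doses of saline. The ASO group (n = 3) received 1 intrathecal dose of 4 mg of an antisense oligonucleotide against MALAT1. The OTV group (n = 3) was given OTV:MALAT1 by vein, in 4 doses of 30 mpk. Tissue of all groups was collected 2 weeks after dosing ended, and no group received an oligonucleotide against another target. Route, number of doses and carrier differ together between the ASO and OTV groups and cannot be told apart. Route and number of doses also differ between the ASO and saline groups, and cannot be told apart there from the oligonucleotide.

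MALAT1 is transcribed into a long RNA that codes for no protein, remains in the nucleus and is among the most abundant transcripts of nuclear preparations. Antisense oligonucleotides of the gapmer kind base-pair with such a transcript and recruit RNase H, which cuts the RNA strand. An oligonucleotide transport vehicle (OTV) couples the oligonucleotide to an engineered protein that grips the transferrin receptor, which brain endothelial cells use to move transferrin across the blood-brain barrier. Behind the endothelium, brain vessels are wrapped by mural cells, which are the pericytes of capillaries and the smooth muscle cells of arterioles, and larger vessels also carry perivascular fibroblasts. Pericytes are known for PDGFRB, the receptor for the platelet-derived growth factor that endothelial cells release, and for the KATP channel subunits KCNJ8 and ABCC9. Perivascular fibroblasts are known for collagens and for decorin (DCN).

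Each library held 19981249 to 98850459 UMIs, and the cluster held 27558 to 344190 UMIs per animal. The median nucleus of the cluster had 4367 UMIs, against 6016 in oligodendrocytes. Across animals this median ran from 2239 in OTV replicate 3 to 5661 in saline replicate 2. The median doublet score in the cluster was 0.00449, against 0.000881 in oligodendrocytes, and the per-animal medians ran from 0.000358 in OTV replicate 1 to 0.0751 in ASO replicate 2. A set of 760 barcode sequences occurred in more than 1 library, on 1522 nuclei in all, of which 2 were in the cluster.

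The genes with the highest ratio of cluster 15 to all other nuclei were LAMA2, COLEC12 and SLC6A12. LAMA2, the alpha 2 chain of laminin in basement membranes, led with 4875 ± 1383 CPM (UMIs of a gene scaled to 1e+06 UMIs in the summed nuclei of an animal, SD over n = 9 animals), against 4.56 CPM in all other nuclei. The scavenger receptor COLEC12 reached 2888 ± 1458 CPM, against 4.91 CPM elsewhere. SLC6A12, a transporter of betaine and GABA, reached 1663 ± 903 CPM and the transcription factor EBF1 reached 3052 ± 587 CPM. The genes after these included SLC38A11, ITIH5, COBLL1, PLXDC1, MYOF, DCN, CCDC141, RERGL, IGFBP7, PDGFRB, ABCA9, FN1, GRM8, ABCC9, COL4A3, KCNT2, SLC30A10, RGS5, NID1 and COL4A4. All 25 leading genes were higher in the cluster than in the other nuclei in 9 of 9 animals, by 45.2-fold to 510-fold with 5 CPM added to both sides. Since the clusters were made from these same genes, the values describe the cluster and are not a test.

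Against marker lists of 17 cell types, cluster 15 had most pericyte and fibroblast markers at least 4-fold higher than the other nuclei, and 2 of 12 endothelial markers. Of 7 measured pericyte markers, 6 were at least 4-fold higher than in the other nuclei, and 3 of these were among the 25 leading genes. PDGFRB averaged 938 ± 251 CPM, RGS5, a regulator of G protein signalling, 1175 ± 569 CPM, and ABCC9 606 ± 300.0 CPM. KCNJ8 averaged 66.5 CPM and HIGD1B 188 CPM. Of 11 measured fibroblast markers, 9 were at least 4-fold higher, with CEMIP, a hyaluronan-degrading protein, at 2615 CPM and DCN at 451 CPM on average. A CEMIP UMI was found in 18.3% of the cluster's nuclei and in 35.4% of neurons, which were sequenced deeper. The exception in the other direction was ABCA8, at 114 CPM against 541 CPM elsewhere.

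Endothelial markers differed among themselves. FLT1, the VEGF receptor, averaged 5.37 CPM against 4.29 CPM elsewhere, PECAM1 averaged 4.29 against 4.46 CPM, and VWF was lower, at 7.87 against 32.7 CPM. TIE1 had a UMI in 0 of 213 nuclei, which allows a share of nuclei with a UMI of up to 1.41% and sets no limit on nuclei that express it at a low level. ESAM, at 69.5 against 1.90 CPM, and CDH5, at 16.9 against 0.348 CPM, were the 2 endothelial markers at least 4-fold higher. Among smooth muscle markers TAGLN, MYL9 and LMOD1 were at least 4-fold higher, while ACTA2 averaged 17.2 CPM against 15.5 CPM elsewhere and CNN1 and MYOCD were not detected. No microglial, T cell, NK cell, B cell, general neuronal, astrocyte, ependymal or choroid plexus marker reached a 4-fold excess. None of the 10 genes with the highest fold was a marker on any list, so the naming rule, which asks for at least 1 such gene, was not met and the nuclei are called cluster 15 here.

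**Figure D1:**
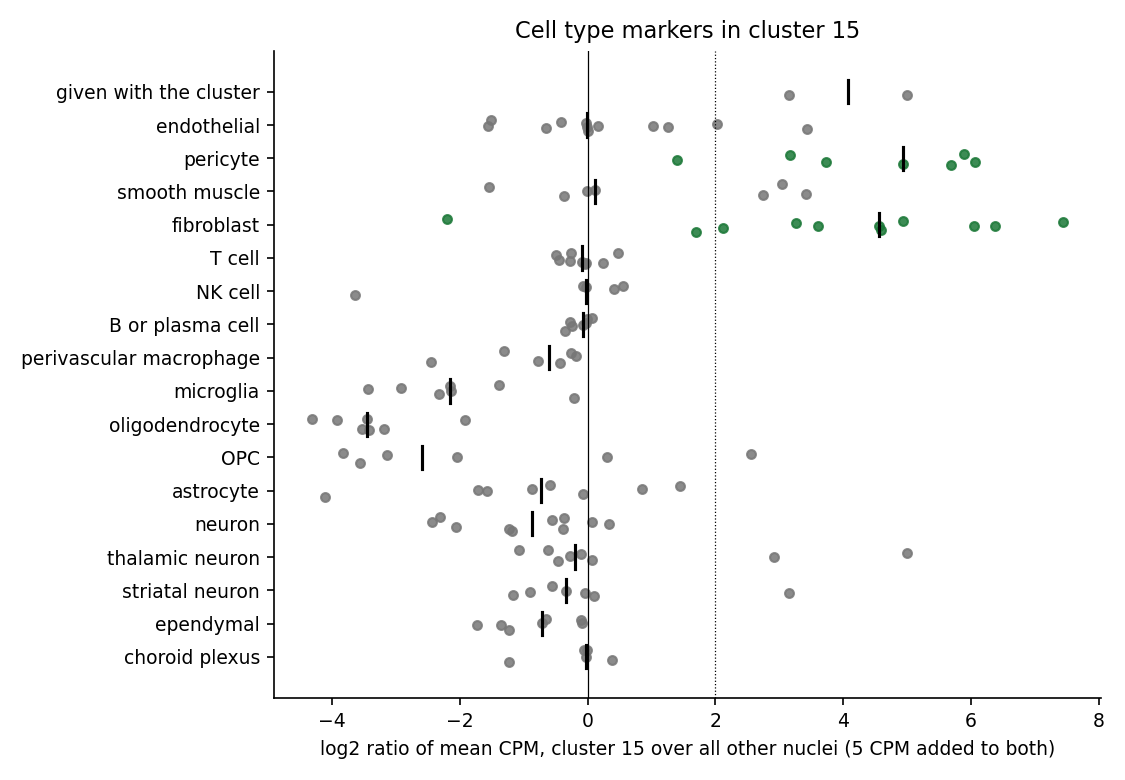
Each point is 1 marker gene, placed by the log2 ratio of its mean CPM over 9 animals in cluster 15 to that in all other nuclei (5 CPM added to both), with 1 row per marker list, a black tick at each list's median and a dotted line at the 4-fold limit. Pericyte and fibroblast markers (green) lie mostly to the right of the dotted line, with 6 of 7 and 9 of 11 past it, and endothelial markers lie mostly around 0.

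LEF1 and ADORA2A, the markers given for this cluster, were both enriched in it, and neither belongs to the pericyte or fibroblast lists. LEF1 is a transcription factor of the Wnt pathway that thalamic neurons also express. Its level was 395, 204 and 435 CPM in saline replicates 1, 2 and 3, 313, 138 and 316 CPM in the ASO replicates and 308, 300.1 and 119.6 CPM in the OTV replicates. The 3 groups overlapped, and in the edgeR fit described for MALAT1 LEF1 differed from saline by a log2 fold change of −0.27 in ASO and −0.41 in OTV (adjusted p = 0.958 and 0.787). A LEF1 UMI was found in 54.5% of the cluster's nuclei and in 0.640% of oligodendrocytes, which were sequenced deeper, and in 14.4% of neurons.

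ADORA2A, a receptor for adenosine, rests on 1 to 21 UMIs per animal. It stood at 92.2, 19.0 and 36.3 CPM in the saline replicates, 52.2, 55.1 and 37.2 CPM in the ASO replicates and 61.0, 75.03 and 85.5 CPM in the OTV replicates. A UMI was found in 19.2% of the cluster's nuclei, in 12.7% of neurons, which were sequenced deeper, and in 0.322% of oligodendrocytes, and the gene was too low to be tested between groups. Of the other thalamic markers RORA, a nuclear receptor of many cell types, was also high, at 6474 against 849 CPM. SLC17A6, the glutamate transporter of thalamic neurons, was at 3.37 against 2.95 CPM, and PRKCD, GBX2 and the striatal marker DRD1 had no UMI.

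Cluster 15 was mixed. When each nucleus was assigned to the marker list of which it had the largest share detected, 139 of 213 nuclei (65.3%) were pericyte-led, 37 (17.4%) were fibroblast-led, 17 were tied, 8 were led by oligodendrocyte markers, 6 by thalamic neuron markers, 3 by smooth muscle markers, 2 by OPC markers and 1 by striatal neuron markers. The classes were cut from each nucleus's share of detected markers, and 32 of the pericyte-led and 6 of the fibroblast-led nuclei lay within 0.1 of the share of another of the 17 lists. The median pericyte-led nucleus had 57.1% of the pericyte list and 18.2% of the fibroblast list. The median fibroblast-led nucleus had 14.3% and 63.6%. All 8 oligodendrocyte-led, 5 of the 6 thalamic-led and 13 of the 17 tied nuclei came from OTV animals, which gave 120 of the 213 nuclei.

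The genes off both lists that separated the nuclei are a description, since the lists chose the nuclei. The pooled counts also mix the treatment groups unequally: 84 of the 139 pericyte-led nuclei came from OTV animals, 54 of them from OTV replicate 1, and 21 of the 37 fibroblast-led nuclei came from saline animals, 16 of them from saline replicate 2. Fibroblast-led nuclei had BICC1 at 1955 CPM against 6.65 CPM in pericyte-led nuclei, both from pooled counts. SLC6A20, a proline transporter, stood at 576 CPM and had no UMI in the pericyte-led nuclei, which makes it at least 116-fold higher against a floor of 3 UMIs over those nuclei. The potassium channel KCNK2 stood at 687 against 3.32 CPM, and ALDH1A2, which makes retinoic acid, at 318 against 1.66 CPM. Pericyte-led nuclei were higher for GUCY1A1 and GUCY1A2, subunits of the soluble guanylate cyclase that senses nitric oxide, at 693 against 60.6 CPM and 1005 against 91.0 CPM. They were also higher for the glutamate receptor GRM8 (5809.9 against 616 CPM), MCAM (219 against 15.2 CPM) and MGLL, which breaks down an endocannabinoid (538 against 40.4 CPM). LAMA2 was abundant in both, at 4458 and 6614 CPM, as was LEF1, at 304 and 243 CPM. On the fibroblast list, DCN was at 370 CPM in pericyte-led and 788 CPM in fibroblast-led nuclei. ABCA9 was at 427 and 687 CPM, while CEMIP was at 36.6 and 12713 CPM. ADORA2A was at 73.1 CPM in the pericyte-led and 5.05 CPM in the fibroblast-led nuclei.

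The mix differed between animals. Fibroblast-led nuclei made up 29.4%, 45.7% and 0% of the cluster in saline replicates 1, 2 and 3, where 0 of 7 nuclei allows a share of up to 42.9%. They made up 25%, 12.5% and 21.4% in the ASO replicates and 2.78%, 16% and 13.04% in the OTV replicates. The group means of 25.04%, 19.6% and 10.6% did not differ beyond the spread between animals (exact permutation test over the 280 divisions of 9 animals, two-sided p = 0.511). CEMIP, which is on the fibroblast list, stood at 5284 and 7770 CPM in saline replicates 1 and 2, at 7871 CPM in ASO replicate 3, and had no UMI in saline replicate 3 and OTV replicate 1.

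**Figure D2:**
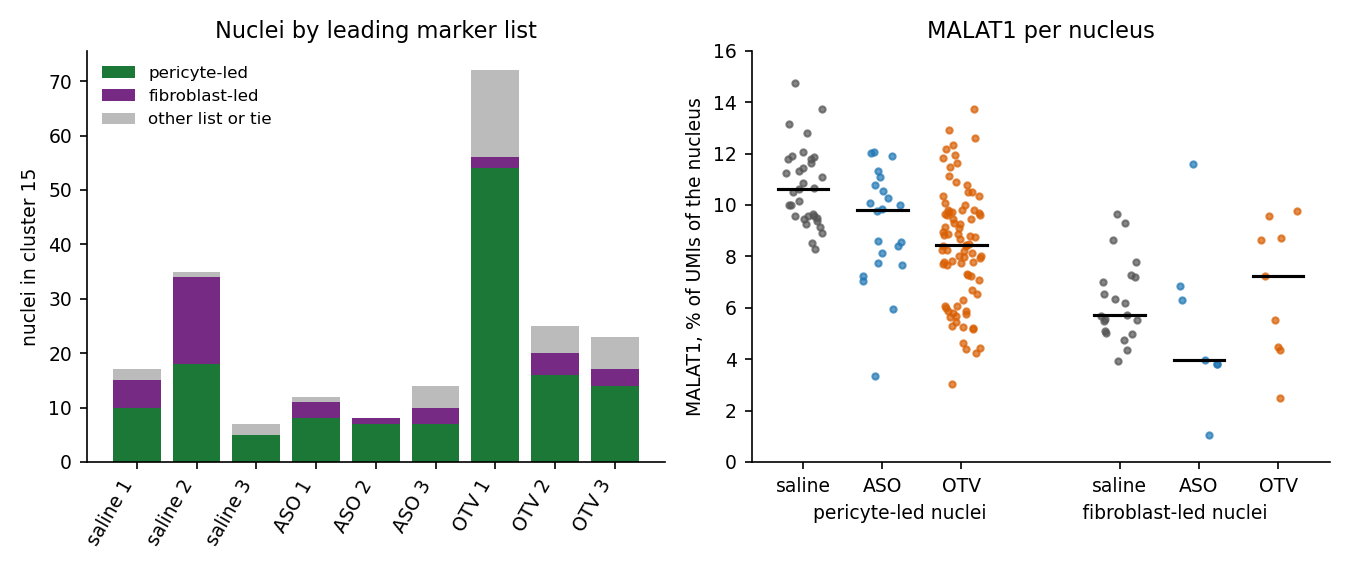
Left, the number of cluster 15 nuclei in each animal, stacked by the marker list that led the nucleus. Right, the MALAT1 share of the UMIs of each pericyte-led and fibroblast-led nucleus (1 point per nucleus, black line at the median) by treatment, with nuclei of 1 animal not independent of each other. Pericyte-led nuclei outnumber the others in each animal except ASO replicate 3, where they are 7 of 14.

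MALAT1 stayed high in cluster 15 after both treatments, and no change was detectable over all its nuclei together. Its share of UMIs was 9.05%, 8.50% and 9.10% in saline replicates 1, 2 and 3, 7.90%, 8.71% and 8.35% in the ASO replicates, and 9.33%, 6.16% and 8.63% in the OTV replicates. Counting error alone gives each of these a 95% Wilson interval of at most 0.340 percentage points on either side. OTV replicate 2 was the lowest of all 9 animals, while OTV replicate 1 was the highest, so the groups overlapped. The means were 8.88% ± 0.332 in saline, 8.32% ± 0.406 in ASO and 8.04% ± 1.66 in OTV (SD, n = 3 each), or 93.7% and 90.5% of saline. The 3 groups did not differ beyond the spread between animals (exact permutation test, two-sided p = 0.693).

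In edgeR's quasi-likelihood fit of counts summed per animal, the MALAT1 log2 fold change against saline was −0.09 in ASO (SE 0.23, 95% interval −0.56 to 0.38, Benjamini-Hochberg adjusted p = 0.988) and −0.23 in OTV (SE 0.23, interval −0.70 to 0.24, adjusted p = 0.792). OTV against ASO gave −0.14 (interval −0.61 to 0.33, adjusted p = 0.895). The oligodendrocytes of the same 9 animals gave −0.87 for OTV against saline (SE 0.14, interval −1.18 to −0.56, adjusted p = 0.00305), a value below the lower bound in cluster 15. Astrocytes gave −0.51 (adjusted p = 0.179) and OPCs −0.43 (adjusted p = 0.0526), both inside the interval of cluster 15, and myeloid nuclei gave −0.90 (adjusted p = 0.0709). For ASO against saline no class was called: oligodendrocytes gave −0.47 (adjusted p = 0.203), astrocytes −0.12, OPCs −0.19 and myeloid nuclei −0.59 (adjusted p = 1.00, 0.726 and 0.510). Without OTV replicate 2, the OTV mean share in the cluster stood 0.0954 percentage points above saline.

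Pericyte-led nuclei alone gave a larger spread between groups. Their MALAT1 share was 10.3%, 11.1% and 9.08% in saline, 9.46%, 9.03% and 9.16% in ASO and 9.25%, 6.095% and 8.62% in OTV. The group means of 10.2% ± 1.02, 9.22% ± 0.224 and 7.99% ± 1.67 placed ASO at 90.6% and OTV at 78.6% of saline. OTV replicate 1 overlapped saline replicate 3, and the 3 groups did not differ beyond the spread (exact permutation test, two-sided p = 0.0679). In the edgeR fit of these nuclei OTV against saline gave −0.47 (SE 0.19, interval −0.86 to −0.07, adjusted p = 0.333 over 782 genes), and without OTV replicate 2 it gave −0.20.

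By summed UMIs, fibroblast-led nuclei held less MALAT1 than pericyte-led nuclei in all 8 animals that had both. By the median nucleus of each animal, the order was reversed in OTV replicates 1 and 3. There the fibroblast-led median was 9.23% and 8.62%, against 9.04% and 7.90%. Pooled over animals, the median fibroblast-led nucleus had 5.71% of its UMIs in MALAT1, against 9.29% in pericyte-led nuclei. These pools mix the treatment groups unequally, as given above. In saline replicates 1 and 2 the summed share was 6.20% and 6.48%, on 5 and 16 nuclei, and lay 4.14 and 4.61 percentage points under the pericyte-led nuclei of the same animal. In OTV replicates 1, 2 and 3 the difference was 0.0209, 1.84 and 0.0768 points, on 2, 4 and 3 fibroblast-led nuclei. In the ASO replicates it was 2.83, 5.07 and 3.28 points, on 3, 1 and 3 fibroblast-led nuclei. Fibroblast-led nuclei also had a higher median doublet score, at 0.0213 against 0.00277, and a higher median depth, at 5413 against 4352 UMIs, and the part of either in the MALAT1 difference was not tested. The pericyte-led values above give the comparison of groups without the fibroblast-led nuclei.

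**Figure D3:**
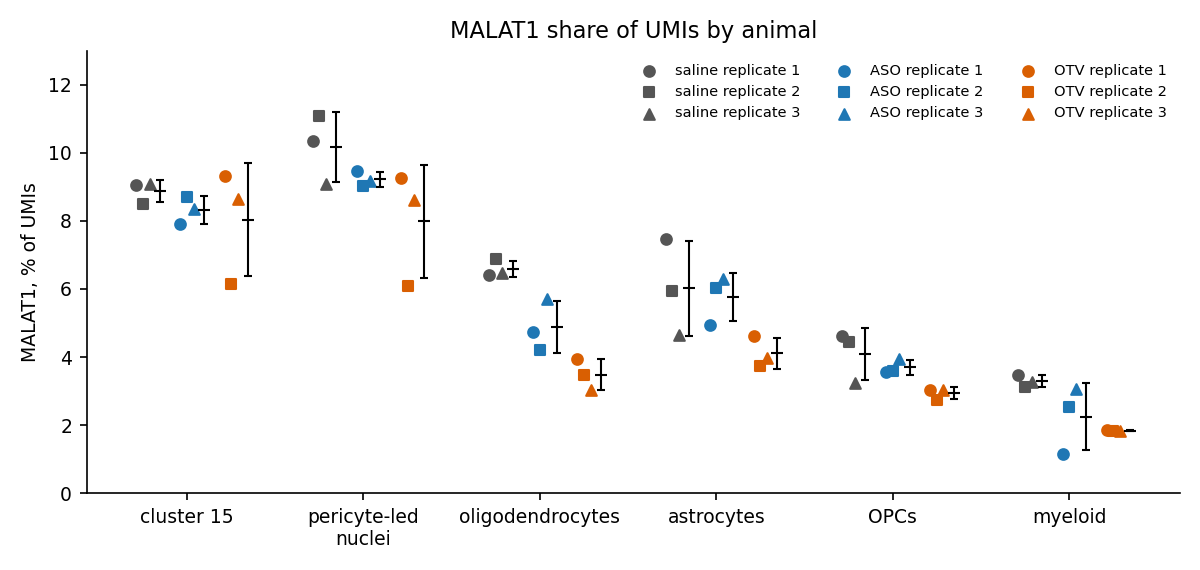
MALAT1 as a percentage of the UMIs summed over the nuclei of each animal (1 point per animal, shape by replicate, colour by group; black bars are the mean and SD of 3 animals) in cluster 15, its pericyte-led nuclei and 4 named cell classes. Cluster 15 lies between 6.16% and 9.33% in all 9 animals, and oligodendrocytes fall from a mean of 6.59% in saline to 3.48% in OTV.

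Set against oligodendrocytes of the same animal, the MALAT1 share of the cluster was higher in the treated animals. The ratio of the MALAT1 share in cluster 15 to that in oligodendrocytes was 1.41, 1.24 and 1.40 in the saline replicates, 1.67, 2.07 and 1.46 in the ASO replicates and 2.36, 1.78 and 2.85 in the OTV replicates. Every ASO and every OTV animal lay above every saline animal. On the log2 scale the ratio was 0.76 higher in OTV and 0.35 higher in ASO than in saline (exact permutation test over the 3 groups, two-sided p = 0.0393, and 0.157 after adjustment over the 4 reference cell types). The cluster was proposed with its high MALAT1 after both treatments known, so this p is no independent support for the difference. Each treated group against saline gave p = 0.1 by the exact test, the smallest that 3 against 3 allows. Leaving out each animal in turn gave p from 0.025 to 0.0964 by the same exact test, under 0.05 only without ASO replicate 2 or OTV replicate 2. With pericyte-led nuclei in place of the whole cluster, the log2 ratio was 0.56 higher in OTV than in saline, and the exact test over the 3 groups gave p = 0.0929. The reference fell: the share in oligodendrocytes went from 6.59% ± 0.245 to 4.89% ± 0.761 and 3.48% ± 0.462 (exact permutation p = 0.00357, the smallest the design allows).

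With other reference cells the 3 groups did not differ beyond the spread: the exact p was 0.157 against astrocytes, 0.332 against OPCs and 0.211 against myeloid nuclei. For OTV the log2 difference was positive against each, at 0.37, 0.29 and 0.67. For ASO it was −0.05 against astrocytes, 0.03 against OPCs and 0.57 against myeloid nuclei. An edgeR interaction of cell class and treatment with animal as a block gave 0.83 for OTV against oligodendrocytes (SE 0.32, adjusted p = 0.369 over 13295 genes).

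RNA of oligodendrocyte genes was present in the cluster. The summed level of the 7 measured oligodendrocyte markers in cluster 15 was 435 to 659 CPM in saline, 696 to 1228 CPM in ASO and 701 to 1284 CPM in OTV, or 7.21% to 17.6% of the level in oligodendrocytes of the same animal. The 3 groups did not differ beyond the spread (exact permutation test, two-sided p = 0.0893), although each saline animal was below each treated one. The same order held outside the cluster: the summed level was 408 to 657 CPM in saline and 850.4 to 1197 CPM in treated animals in OPCs, 747 to 884 and 936 to 1692 CPM in myeloid nuclei, and 357 to 413 and 446 to 747 CPM in astrocytes. In neurons the saline and treated animals overlapped. The part of this RNA in the MALAT1 values was not tested.

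TFRC, the transferrin receptor that OTV binds, was at 24.4 ± 32.9 CPM in cluster 15 and 19.8 CPM in the other nuclei. It had a UMI in 7.51% of the cluster's nuclei and in 8.07% of oligodendrocytes, 11.02% of myeloid nuclei, 18.3% of astrocytes, 19.8% of OPCs and 29.5% of neurons. All of these classes except myeloid nuclei were sequenced deeper than the cluster. In pooled counts TFRC was at 11.6 CPM in pericyte-led and 35.4 CPM in fibroblast-led nuclei. Among genes of nuclear RNA decay, XRN2, an exonuclease that clears cut transcripts, averaged 139 CPM in the cluster and 107 CPM elsewhere. MTREX, a helicase that feeds the nuclear exosome, averaged 131 and 143 CPM. RNASEH2A and RNASEH2C, subunits of RNase H2, averaged 7.39 and 15.0 CPM against 5.84 and 11.1 CPM. Of the 12 genes on this list, which also holds MALAT1 and NEAT1, 9 were measured, MALAT1 among them. RNASEH1, the gene of RNase H1, was not among the 9, so no level can be given for it. Their levels relative to other classes are given as a description of 9 animals.

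The cluster's share of nuclei differed between the groups. It was 0.157%, 0.305% and 0.237% of all nuclei in saline replicates 1, 2 and 3, 0.1001%, 0.0672% and 0.146% in the ASO replicates, and 0.739%, 0.656% and 0.301% in the OTV replicates. Every ASO animal lay below every saline animal, while OTV replicate 3 lay just under saline replicate 2. The means were 0.233% ± 0.0743, 0.104% ± 0.0393 and 0.566% ± 0.233 (SD, n = 3 each). On the log2 odds scale ASO was 1.18 below and OTV 1.24 above saline (exact permutation test over the 3 groups, two-sided p = 0.00714, with pair p of 0.1 and 0.2). Pericyte-led nuclei alone gave p = 0.00357 by the same exact test.

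Other cell classes also varied between animals. Neurons ranged from 0.143% of nuclei in ASO replicate 2 to 17.8% in saline replicate 3, and oligodendrocytes made up 61578 of the 79994 nuclei. Among nuclei that were not oligodendrocytes, the cluster's share was 0.757%, 1.31% and 0.372% in saline, 0.536%, 0.615% and 0.551% in ASO and 2.89%, 2.44% and 1.14% in OTV. ASO and saline then overlapped, as did OTV and saline, and the exact permutation p over the 3 groups was 0.0607, with log2 odds differences from saline of −0.35 for ASO and 1.498 for OTV. Nuclei were sorted from tissue pieces by their DNA stain, and how dissection and sorting shaped these shares was not tested.

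**Figure D4:**
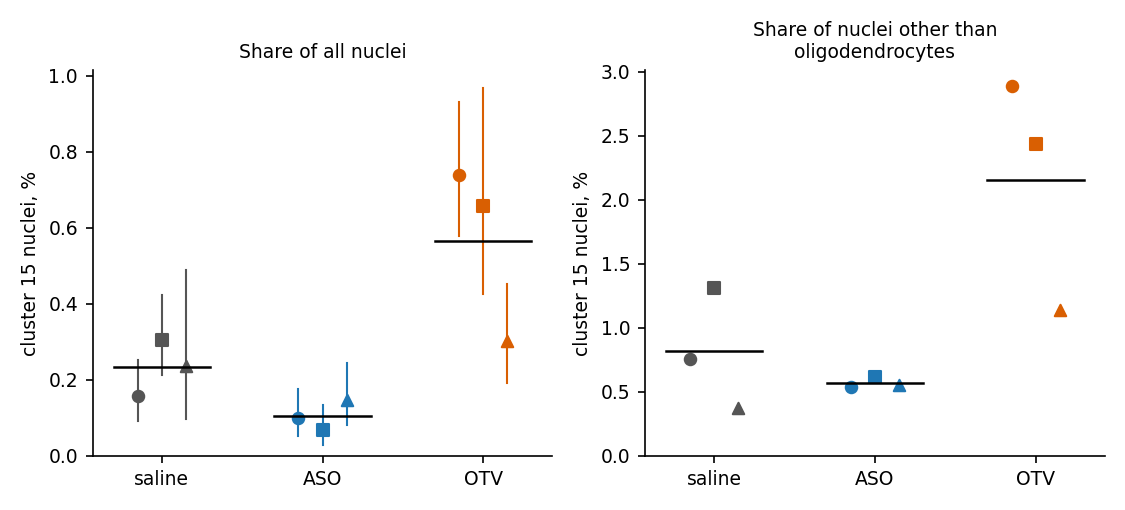
The share of each animal's nuclei that fell in cluster 15, of all nuclei (left, with exact 95% binomial intervals that cover counting error only) and of nuclei other than oligodendrocytes (right), with 1 point per animal (circle, square and triangle for replicates 1, 2 and 3) and a line at the group mean. In the left panel the 3 ASO animals are the lowest, at 0.0672% to 0.146%, and OTV replicates 1 and 2 are the highest.

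Within the cluster, genes passed the test between OTV and each of the other groups, and none did between ASO and saline. In the edgeR fit 1527 genes were tested. For ASO against saline 0 genes (0.0%) passed an adjusted p of 0.05, with 112 at an unadjusted p under 0.05, and DESeq2 also called 0, with 80 at an unadjusted p under 0.05. For OTV against saline 27 genes (1.77%) passed, 14 higher (0.917%) and 13 lower (0.851%). For OTV against ASO 28 genes (1.83%) passed, 16 higher (1.05%) and 12 lower (0.786%). With 1 animal left out these counts ran from 6 to 56 and from 8 to 44, and DESeq2 called 27 in each comparison. In the pericyte-led nuclei alone 782 genes were tested, among them 16 of the 27 and 23 of the 28, of which 10 and 18 were also called there. There 15 genes (1.92%) passed against saline, 6 higher (0.767%) and 9 lower (1.15%), and 34 (4.35%) passed against ASO, 14 higher (1.79%) and 20 lower (2.56%). For ASO against saline edgeR called 0 of the 782, with 67 at an unadjusted p under 0.05, and DESeq2 called 0, with 52. All genes named below as called had groups that did not overlap, unless stated, and so did 248 of the 1527 genes tested (16.2%) for OTV against saline. With ASO as the reference for OTV it was 299 genes (19.6%). In pericyte-led nuclei the groups did not overlap for 135 of the 782 genes (17.3%) with saline and for 162 (20.7%) with ASO as that reference.

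DCC, the netrin receptor, rose with OTV against both groups, and kept its call when any 1 animal was left out. It stood at 26.4, 94.8 and 145 CPM in saline, 52.2, 27.5 and 93.0 CPM in ASO and 535, 589.5 and 479 CPM in OTV. The saline values rest on 2, 20 and 4 UMIs and the ASO values on 3, 1 and 5 UMIs. All 3 OTV animals lay above the other 6, and the log2 fold change was 2.61 against saline (SE 0.43, adjusted p = 0.00292) and 3.03 against ASO (SE 0.49, adjusted p = 0.00211). In the pericyte-led nuclei it was 2.43 and 2.71. DCC averaged 2863 CPM in the other nuclei of saline animals and 3736 CPM in those of OTV animals, so its level in the cluster stayed below theirs in each group.

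PPP2R2B, a regulatory subunit of protein phosphatase 2A, rose by 2.62 on the log2 scale against saline and 2.78 against ASO. RALYL stood at 65.9, 152 and 254 CPM in saline, on 5, 32 and 7 UMIs, and at 782, 718 and 359 CPM in OTV. TTLL7, PEX5L and NKAIN2 rose by 2.78, 2.81 and 1.67 against saline. DCC and these 5 genes averaged 1408 to 5358 CPM in oligodendrocytes. The part of oligodendrocyte RNA in their change, whose level in the cluster is given above, was not tested. TOX2 rose by 2.20 against saline, and in oligodendrocytes it averaged 59.3 CPM. With 1 animal left out, the call against saline held in 8 of 9 fits for PPP2R2B, 7 for TTLL7, 6 for PEX5L and RALYL, 5 for TOX2 and 4 for NKAIN2, and the call of PPP2R2B against ASO held in 7. In pericyte-led nuclei RALYL was called against saline (1.81, adjusted p = 0.0210), while TTLL7 (2.51, adjusted p = 0.0722) and NKAIN2 (1.92, adjusted p = 0.0508) were not.

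Against ASO, ERBB4, a receptor for neuregulin, rose by 2.43 and the adhesion molecule MDGA2 by 2.44 on the log2 scale. ERBB4 stood at 34.8, 110.1 and 93.0 CPM in ASO, 384, 439 and 513 CPM in OTV and 92.2, 161 and 254 CPM in saline. MDGA2 in OTV, at 354, 493 and 222 CPM, overlapped saline, at 119, 80.5 and 290 CPM. ERBB4 averaged 3161 CPM in oligodendrocytes and 3745 CPM in astrocytes, and MDGA2 2454 CPM in oligodendrocytes and 2533 CPM in OPCs. The part of RNA from other cells in their change was not tested. In the other nuclei the log2 difference of OTV from ASO was −0.25 for ERBB4 and 0.40 for MDGA2. ST6GALNAC3, a sialyltransferase that averaged 6763 CPM in myeloid nuclei, rose by 2.44 against ASO (adjusted p = 0.0435), a call that held in 3 of 9 fits with 1 animal left out. That of MDGA2 held in 5 and that of ERBB4 in 8. In pericyte-led nuclei MDGA2 was called (2.48, adjusted p = 0.0381) and ERBB4 was not (1.73, adjusted p = 0.0916).

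ACADS, a mitochondrial enzyme of short-chain fatty acid oxidation, fell with OTV against both groups. It stood at 184, 261 and 218 CPM in saline, 330.4, 385 and 316 CPM in ASO and 69.7, 75.03 and 51.3 CPM in OTV. The OTV values rest on 24, 7 and 3 UMIs. The log2 fold change was −1.83 against saline (adjusted p = 0.0174) and −2.41 against ASO (adjusted p = 0.00211). PPP2R1B, a scaffold subunit of protein phosphatase 2A, fell by 1.92 and 2.16, and RPS6, a protein of the small ribosomal subunit, fell by 2.13 and 2.20. In OTV replicates 1, 2 and 3, PPP2R1B had 55, 17 and 2 UMIs and RPS6 had 25, 6 and 2 UMIs. With 1 animal left out, the call against saline held in 6 of 9 fits for each of the 3, and that against ASO in 9 for ACADS, 6 for PPP2R1B and 5 for RPS6. In pericyte-led nuclei all 3 were called against both groups, except RPS6 against saline (−1.98, adjusted p = 0.132).

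The same direction was seen outside the cluster for these 3 genes. In the other nuclei the log2 difference of OTV from saline was −2.38 for ACADS, −1.15 for PPP2R1B and −1.49 for RPS6. Of the 27 genes called against saline, 12 of 14 higher and 12 of 13 lower had the same sign in the other nuclei of the same animals, which share the animals and so are no independent support. The same count was not made over all genes tested, so the usual share with the same sign is not known. The median size of the difference in the other nuclei was 0.51 for the higher and 1.197 for the lower genes, against 2.13 and 2.20 in the cluster.

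APOD, COL12A1, USP53 and FOXO3 fell with OTV against saline. APOD, an apolipoprotein, stood at 369, 384 and 109 CPM in saline, 52.2, 27.5 and 186 CPM in ASO and 34.9, 85.7 and 17.1 CPM in OTV, and fell by 2.90 on the log2 scale against saline (SE 0.56, adjusted p = 0.010). Its OTV values rest on 12, 8 and 1 UMIs. COL12A1, a fibril-associated collagen, fell by 2.41 and USP53 by 1.97. FOXO3, a transcription factor held out of the nucleus by insulin signalling, fell by 1.79. With 1 animal left out, the call held in 5 of 9 fits for APOD and FOXO3, 4 for COL12A1 and 3 for USP53, and USP53 was at −0.97 without saline replicate 2 (adjusted p = 0.840). In pooled counts APOD stood at 551 CPM in fibroblast-led and 48.2 CPM in pericyte-led nuclei, COL12A1 at 637 and 61.5 CPM, USP53 at 505 and 51.5 CPM, and FOXO3 at 819 and 231 CPM. Since the pericyte-led pool is mostly from OTV and the fibroblast-led pool mostly from saline animals, these pooled values are not independent of the choice of genes that fell in OTV. None of these 4 was high enough to be tested in pericyte-led nuclei. Fibroblast-led nuclei averaged 10.6% of the cluster in OTV and 25.04% in saline, and their part in these falls was not tested. KCNK2 was called lower at −4.93 with groups that overlapped, and was chosen here after its values were seen.

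**Figure D5:**
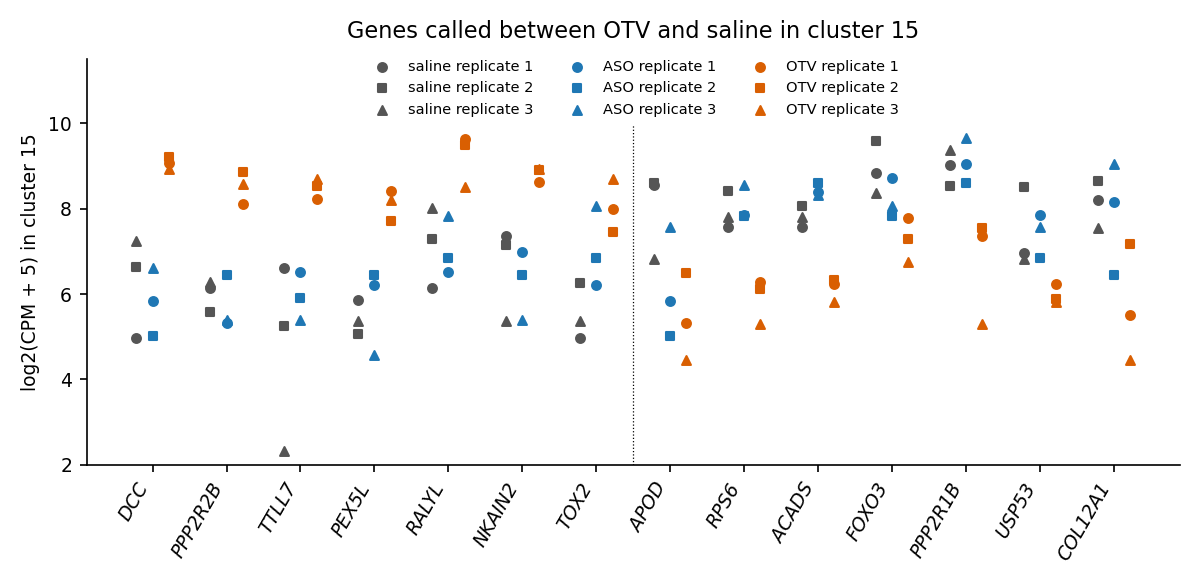
Genes called between OTV and saline by the naming rule, as log2(CPM + 5) in cluster 15, with 1 point per animal (shape by replicate, colour by group). The 7 genes left of the dotted line were higher and the 7 right of it lower in OTV, with no overlap between the 3 OTV and 3 saline animals in any of the 14.

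Pericyte, fibroblast and leading genes gave no call in cluster 15. In the comparison of OTV with saline, where 1.77% of all genes were called, 4 of 7 pericyte markers and 6 of 11 fibroblast markers were abundant enough to be tested, 0 were called in either direction, and their median log2 fold changes were 0.02 and −1.53, against −0.04 over all 1527 genes. The 25 leading genes had a median of −0.02, with 0 called. In pericyte-led nuclei the medians of OTV against saline were lower, at −0.48 for the 4 pericyte markers tested, 0 of which were positive, and −0.36 for the 25 leading genes, 5 of which were positive, against −0.05 over all 782 genes, and 0 of either list were called (1.92% of all genes). Detection of pericyte markers chose these nuclei, so the levels of those markers in them are not independent of the choice. Over the whole cluster PDGFRB stood at 817, 464 and 1197 CPM in saline, 852, 1211 and 726 CPM in ASO and 1028.5, 1189.8 and 957 CPM in OTV, and OTV differed from saline by 0.34 on the log2 scale (SE 0.36, adjusted p = 0.800). Of 19 measured genes of Wnt and beta-catenin signalling 4 were tested, and of 21 genes of endocytosis and endosomal transport 6 were tested, with 0 called in each of the 3 comparisons.

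In pericyte-led nuclei alone, RGS5 and IGFBP7 fell with OTV relative to ASO, and SLC6A12 rose. The nuclei were chosen by detected pericyte markers, RGS5 among them, so its level is not independent of the choice. RGS5 stood at 1452, 2523 and 1607 CPM in ASO, 1058, 939.9 and 799.9 CPM in OTV and 1901, 1506 and 2118 CPM in saline, so the OTV animals were the lowest 3 of 9. It fell by 1.11 on the log2 scale against ASO (SE 0.30, adjusted p = 0.0265), and the value against saline was −1.06 (SE 0.29, adjusted p = 0.0508). IGFBP7, a secreted binding protein of the vessel wall, stood at 1743, 2289 and 2877 CPM in ASO, 1157, 992 and 634 CPM in OTV and 1923, 1371 and 1379 CPM in saline. It fell by 1.39 against ASO (SE 0.30, adjusted p = 0.00596).

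NR2F2, a transcription factor of veins and vascular progenitors, fell by 1.25 and PDE7B, a phosphodiesterase of cyclic AMP, by 1.01 against ASO. SLC6A12 stood at 1437, 1753 and 2216 CPM in saline, 1000.4, 1585 and 1121 CPM in ASO and 2078, 4073 and 2676 CPM in OTV, so OTV overlapped saline. It rose by 1.10 against ASO (SE 0.31, adjusted p = 0.0330). PDGFRB and ABCC9 were not called, at −0.40 and 0.52. Of the 25 leading genes, 1 was called higher and 2 lower (4.35% of all 782 genes were called), and their median was −0.41 against −0.06 over all 782 genes. ELAPOR2 fell in the pericyte-led nuclei against both groups. It stood at 641, 809 and 591 CPM in saline, 936, 851 and 1196 CPM in ASO and 191, 226 and 138 CPM in OTV, at log2 fold changes of −2.0004 (adjusted p = 0.000606) and −2.50. In the pericyte-led fit the libraries rested on 5 to 54 nuclei per animal, with 7 or 8 in each ASO animal.

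Between ASO and saline no gene was called in cluster 15, and those with the smallest p are given as values. NR1D2, a repressor of the clock loop, stood at 264, 246 and 472 CPM in saline, 86.9, 27.5 and 18.6 CPM in ASO and 261, 171 and 256 CPM in OTV (log2 fold change of ASO against saline −2.65, SE 0.56, adjusted p = 0.184). PER3, a period gene, stood at 422, 379 and 363 CPM in saline, 86.9, 82.6 and 186 CPM in ASO and 317, 439 and 427 CPM in OTV (−1.68, SE 0.41, adjusted p = 0.198). In ASO replicates 1, 2 and 3, NR1D2 rested on 5, 1 and 1 UMIs and PER3 on 5, 3 and 10 UMIs. Both were called higher in OTV than in ASO, at 2.19 and 1.57, each with an edgeR adjusted p = 0.0497. In pericyte-led nuclei the same comparison gave 1.52 for NR1D2, which was not called (adjusted p = 0.316), and 2.41 for PER3 (adjusted p = 0.0102). In the other nuclei the group means of NR1D2 were 105, 90.0 and 100.4 CPM and those of PER3 were 195, 159 and 230 CPM in saline, ASO and OTV. The time of day at which tissue was taken is not given in the labels, and its part was not tested. PIP5K1B stood at 145, 166 and 218 CPM in saline and 799.8, 385 and 465 CPM in ASO (1.72, SE 0.40, adjusted p = 0.198), and STK39, a kinase of salt transport, gave −1.65 (adjusted p = 0.198).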

How the data were processed

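Nuclei were sorted on DAPI and profiled on the 10x Genomics platform, per the labels' protocols. The authors deposited raw UMI counts per nucleus and feature, with a table of cell type, cluster, percent of ribosomal reads (not used) and a doublet score per nucleus. The submitters' processing notes name Cell Ranger 6.1.2, Seurat 4 and GRCh38.p13, while the deposited features without a symbol carry crab-eating macaque Ensembl identifiers. For the doublet calls, the tool was not given in the sources used here. A deposited column calls all 79994 nuclei singlets, and the smallest nucleus has 1018 UMIs. Of 29128 features, 14893 have a symbol, and 14048 of these are in the RefSeq table.

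The members, marker lists and gene lists were chosen with earlier results of these data known. Counts of the cluster's nuclei were summed per animal, and CPM were scaled to all UMIs summed. The sums were tested with edgeR 4.0.16 (R 4.3.3; filterByExpr by group, TMM factors, robust quasi-likelihood fit over all 9 animals, Benjamini-Hochberg adjustment over all genes tested, threshold 0.05). DESeq2 1.42.0 was an alternative. Shares and ratios were compared with exact permutation tests over animals (enumerated in Python 3.11.15 with numpy 2.4.6), so p-values measure the spread between animals. MALAT1 intervals are 95% Wilson and nuclei intervals exact binomial (scipy 1.17.1), and both cover counting error only. Named genes were the 25 with a symbol and the largest ratio of mean CPM to the other nuclei (prior 5 CPM, a UMI in at least 25% of nuclei) and, per comparison, up to 8 in each direction without overlap of groups, taken by adjusted p. Where fewer than 3 were called, the 3 smallest p in each direction were given as values. MALAT1, TFRC, LEF1 and ADORA2A were always named, as were examples from the lists. Some genes that the rule names are not reported here. Genes named in the pericyte-led nuclei alone, and genes that differed between the pericyte-led and fibroblast-led nuclei, were chosen after their values were seen.

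Alternatives changed the normalization, tool, filter, animals in the fit, thinning to 1000 UMIs per nucleus, reference class and denominator, and left out each animal. On simulated counts of 1527 genes for OTV against saline in the cluster, the edgeR step recovered 90.0% of 4-fold and 18.7% of 2-fold changes and called 0.250% of unchanged genes.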

Additional observations from a re-analysis of the deposited data

Results flagged for a closer look

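The MALAT1 change in cluster 15 was set beside that in oligodendrocytes of the same animals, and the unadjusted exact permutation test of the ratio over the 3 groups passed the threshold (two-sided p = 0.0393). The log2 ratio of the MALAT1 share in cluster 15 to that in oligodendrocytes was 0.76 higher in OTV than in saline, where the mean share went from 8.88% to 8.04% in the cluster and from 6.59% to 3.48% in oligodendrocytes. The cluster was proposed with its high MALAT1 after treatment known, so this p is no independent support. The exact test did not pass after adjustment over the 4 reference classes (p = 0.157), nor before it with astrocytes, OPCs, myeloid nuclei or all other nuclei as the reference. In pericyte-led nuclei alone, an alternative chosen after seeing the data, the mean share went from 10.2% in saline to 7.99% in OTV. Their log2 ratio to oligodendrocytes was 0.56 higher in OTV than in saline (exact permutation test over the 3 groups, two-sided p = 0.0929).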

How the results depend on the processing

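No paired analysis was possible because the replicate numbers were given in accession order and pair no animals across groups. The cause of each shift below was not tested. The log2 MALAT1 ratio of the cluster to a reference, ASO minus saline, was −0.049 with astrocytes (a reversed sign), 0.034 with OPCs, 0.57 with myeloid nuclei, 0.24 with all other nuclei, 0.31 in pericyte-led nuclei (an alternative chosen after seeing the data) and 0.36 as an edgeR interaction. OTV minus saline was 0.37, 0.29, 0.67, 0.65 and 0.56 in the same order without the interaction. None of these passed the threshold, except that the OTV interaction had an unadjusted p = 0.00911 in edgeR (adjusted p = 0.369). Leaving out 1 animal gave 0.21 to 0.46 for ASO and 0.60 to 0.94 for OTV.

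Among nuclei that were not oligodendrocytes, the cluster's log2 odds were −0.35 in ASO and 1.498 in OTV relative to saline, no longer past the threshold. Over all nuclei, the exact p stayed between 0.00357 and 0.025 without any 1 animal. With 1 animal left out, the MALAT1 share, OTV minus saline, ran from −1.49 to 0.10 percentage points, positive only without OTV replicate 2. In pericyte-led nuclei alone it was −2.18 points. MALAT1 in OTV against ASO ran from −0.24 to 0.054 (log2) with 1 animal left out, positive there only without OTV replicate 2. It was −0.33 in pericyte-led nuclei alone. With no filter on low counts it was 0.20, where the median over all genes was 0.15. No alternative called MALAT1 in the cluster.

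With no filter on low counts, 14 genes were called between ASO and saline, 111 between OTV and saline and 92 between OTV and ASO, and pericyte-led nuclei gave 15 for OTV against saline. Leaving out 1 animal gave 0 to 2, 6 to 56 and 8 to 44 in the same order. For OTV against saline the count was 6 without saline replicate 2 or OTV replicate 3, 8 without OTV replicate 1, 16 without saline replicate 1 and 56 without saline replicate 3. For OTV against ASO it was 8 without OTV replicate 1, 11 without ASO replicate 3, 14 without OTV replicate 2 or 3, 15 without ASO replicate 1 and 44 without saline replicate 3. In pericyte-led nuclei these ranges were 0 to 8, 10 to 26 and 21 to 45. For named genes, 294 alternative values kept the call and 125 lost it with the same direction. Leaving out nuclei with high doublet scores could not be given a value, since 5 of 9 animals had no nucleus left. In pericyte-led nuclei the ASO animals held 7 or 8 nuclei each, which limits the depth of every comparison with them.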

Other observations

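Levels of signalling genes in cluster 15 are given as a description of 9 animals with no test. At least 4-fold higher than in the other nuclei were 5 of 19 Wnt genes measured (median fold 1.83), 6 of 22 genes of VEGF, angiopoietin, Notch and BMP signalling (2.26), 3 of 13 adenosine genes (0.909) and 1 of 15 iron genes (1.19), beside 522 of all 14893 features with a symbol (3.51%, median fold 0.991). Among Wnt genes ADGRA2, which endothelial cells and pericytes use as a co-receptor for WNT7, averaged 177 CPM against 2.29 CPM in the other nuclei. ZNRF3, a ubiquitin ligase that removes Wnt receptors, was under that limit, at 235 against 89.4 CPM. Among Notch genes the ligand JAG1 averaged 156 against 8.19 CPM and the target HEY2 averaged 125 against 8.54 CPM. Among adenosine and cyclic AMP genes PDE7B averaged 2031 against 177 CPM and the receptor ADORA2B 106 against 8.76 CPM, while adenosine kinase (ADK) averaged 489.5 against 689 CPM. SLC40A1, the iron exporter ferroportin, averaged 84.7 against 5.57 CPM. Of the 19 Wnt, 13 adenosine and 21 endocytosis genes measured, 4, 3 and 6 were tested between groups in the cluster and 0 were called, where 1.77% of all 1527 genes were called between OTV and saline, 1.83% between OTV and ASO and 0.0% between ASO and saline. In pericyte-led nuclei 2 of 3 tested adenosine genes were called for OTV against ASO, ADK higher and PDE7B lower, where 4.35% of all 782 genes were called.

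ADK in pericyte-led nuclei stood at 553, 708 and 739 CPM in saline, 161, 117 and 336 CPM in ASO and 794, 487 and 634 CPM in OTV, and was called higher in OTV than in ASO (log2 fold change 1.59, SE 0.42, edgeR adjusted p = 0.0220). PER3 in the same nuclei stood at 332, 371 and 493 CPM in saline, 32.3, 58.7 and 112 CPM in ASO and 298, 435 and 496 CPM in OTV (2.41 for OTV against ASO, SE 0.56, edgeR adjusted p = 0.0102). Both were lowest in the 3 ASO animals, which rest on 7 or 8 pericyte-led nuclei each, and PER3 had 1, 2 and 3 UMIs there.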
